A study of Mus musculus with 12 samples.

Results

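The 9 genes described here, of 53465 genes counted, are those for the uptake and handling of the transmitter amino acids glutamate, GABA and glycine by glial cells: Slc1a2, Slc1a3, Slc1a4, Slc6a11, Slc6a9, Slc7a10, Slc7a11, Slc38a3 and Glul. They were chosen by name and function, with earlier results of these data known. Glial RNA was sequenced from spinal cords of C57BL/6 mice at postnatal day 7, taken at brachial and thoracic levels. All mice carried an Aldh1L1-GFP reporter together with an Olig2-tdTomato reporter. Cells were freed with papain and sorted on a FACS Aria into an eGFP/tdTomato fraction (both labels), an eGFP fraction and a tdTomato fraction, with 4 libraries each, numbered 1, 2, 3 and 5. The labels call these biological replicates. Sort gates, animals per library and the make of each reporter are not stated in the labels, so a p-value here reflects the spread among libraries.

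Astrocytes take released transmitter out of the extracellular space. Glutamate enters through the sodium-coupled carriers GLT-1 (gene Slc1a2) and GLAST (Slc1a3), is joined to ammonia by glutamine synthetase (Glul), and leaves as glutamine through carriers such as Slc38a3. GABA and glycine, the inhibitory transmitters of the spinal cord, enter glia through sodium- and chloride-coupled carriers of the Slc6 family. Exchangers of small neutral amino acids and of cystine for glutamate work beside them.

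In units of 1e6 gene counts, libraries held 23.9 to 30.3 in the eGFP/tdTomato fraction, 12.6 to 27.9 in the eGFP fraction and 25.5 to 36.5 in tdTomato libraries. The library eGFP replicate 1 stood apart, with the fewest gene counts and 57.1% of its reads outside annotated genes, against 21.2 to 42.5% in the other 11 libraries. Aldh1l1 averaged 722 ± 169.7 CPM (counts scaled to library size with TMM factors) in the eGFP/tdTomato fraction, 406 ± 207 CPM in the eGFP fraction and 3.69 ± 1.83 CPM in the tdTomato fraction (SD, n = 4 each). Olig2 averaged 74.4 ± 29.95, 5.76 ± 3.06 and 258 ± 80.1 CPM in the same order of fractions. The summed level of 8 astrocyte markers was 28428 to 33199 CPM in the eGFP/tdTomato fraction, 16981 to 27117 CPM in the eGFP fraction and 129 to 190.1 CPM in the tdTomato fraction. That of 6 markers of myelinating oligodendrocytes was 1452 to 3041, 371 to 1250.3 and 103837 to 152230.0 CPM, so the tdTomato libraries were rich in myelin transcripts and the other libraries in astrocyte transcripts.

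All 9 genes passed the filter on low counts. All 9 were higher in the eGFP/tdTomato fraction than in the tdTomato fraction, and all 9 were higher in the eGFP fraction than in the tdTomato fraction, where 16.8% and 20.4% of the 29361 tested genes were called higher (29.2% and 35.2% in either direction). Calls had an adjusted p under 0.05 in edgeR's quasi-likelihood test (Benjamini-Hochberg). The median log2 fold change of the 9 was 4.78 against 0.70 for all tested genes in the first of these comparisons, and 4.76 against 0.79 in the second. Between the eGFP/tdTomato and the eGFP fraction, 1 of the 9, Slc7a10, was called higher and none lower, where 0.814% of tested genes were called higher and 1.67% lower. Of the 9 estimates, 8 were above 0 with a median of 0.98, against -0.02 for all tested genes, a median that lay between -0.14 and 0.12 over the alternative settings. At an unadjusted p under 0.05, 7 of the 9 passed, where 9.95% of tested genes did. The ranges of the libraries were apart for 3 of the 9, Slc1a2, Slc1a4 and Slc7a10. How many of all tested genes had ranges apart was not computed, so this count has no background. The number called there depended on the fit. It was 6 of the 9 with DESeq2, with the replicate block and with the covariate for reads outside genes. It was 0 when edgeR was fitted to the 8 libraries alone. Of all genes, 547, 566, 530 and 163 were called higher in these fits, in that order, against 239 in the reported fit. The 3 comparisons share libraries pairwise and are not independent of each other. In sorted bulk RNA, fewer cells of a type and less RNA per cell cannot be told apart.

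**Figure D1:**
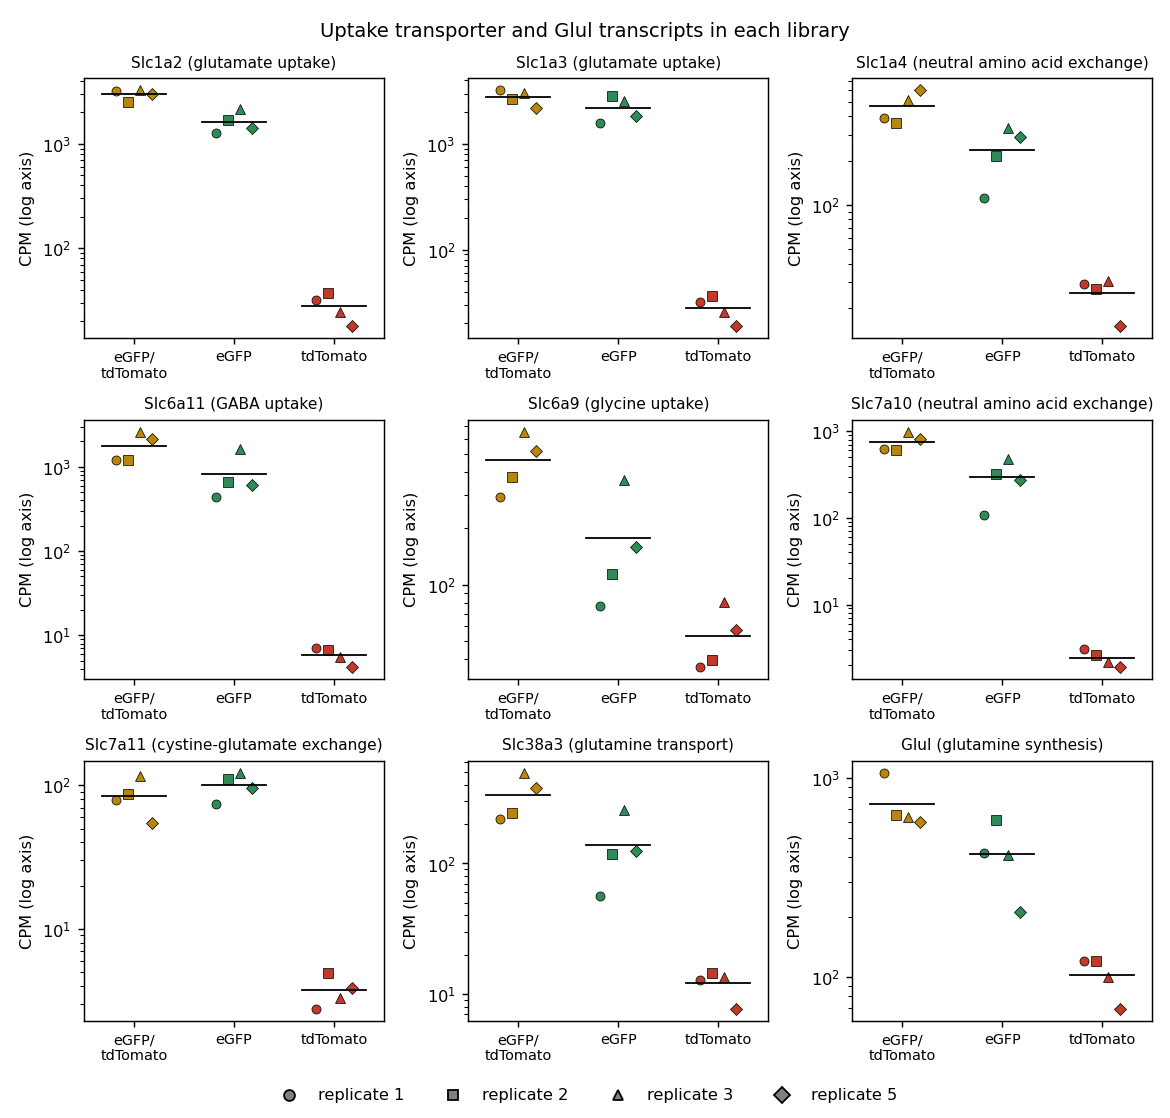
CPM of the 9 genes on a log axis in each of the 12 libraries, with the eGFP/tdTomato, eGFP and tdTomato fractions from left to right in every panel, symbols for the replicate numbers and a line at the mean of 4 libraries. The tdTomato libraries lay below all libraries of both other fractions in 8 of the 9 panels, and in the panel of Slc6a9 the highest tdTomato library lay above the lowest eGFP library.

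Slc1a2 (ENSMUSG00000005089, chromosome 2, 102658659 to 102790784, plus strand, GRCm38) encodes GLT-1, the main glutamate carrier of mature astrocytes. Its level in libraries 1, 2, 3 and 5 was 3169, 2510.5, 3245 and 2981 CPM in the eGFP/tdTomato fraction, 1268, 1701, 2141 and 1399 CPM in the eGFP fraction and 32.1, 37.3, 24.7 and 18.1 CPM in the tdTomato fraction. Every eGFP/tdTomato library was above every eGFP library, and every eGFP library was far above the tdTomato libraries. Slc1a2 was 106-fold higher in the eGFP/tdTomato fraction than in the tdTomato fraction (log2 fold change 6.73 ± 0.30, SE). It was 58.00-fold higher in the eGFP fraction than in the tdTomato fraction (5.86 ± 0.29). The log2 difference between the eGFP/tdTomato and the eGFP fraction was 0.87 ± 0.23 and missed the threshold (adjusted p = 0.0692). It passed without eGFP replicate 3 (adjusted p = 0.0285) and without tdTomato replicate 5 (0.0383), a library of neither fraction. With the replicate number as a block it was 0.89 and passed (adjusted p = 0.0323).

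Slc1a3 (ENSMUSG00000005360, chromosome 15, 8634124 to 8710764, minus strand) encodes GLAST, a glutamate carrier already present in radial glia. It was read at 3227, 2663, 3031 and 2208 CPM in the eGFP/tdTomato libraries, 1569, 2863, 2539.5 and 1850.5 CPM in the eGFP libraries and 31.7, 36.5, 25.5 and 18.9 CPM in the tdTomato libraries. The eGFP/tdTomato and eGFP libraries overlapped, with eGFP replicate 2 above 2 of the 4 eGFP/tdTomato libraries. Slc1a3 was 98.8-fold higher in the eGFP/tdTomato fraction and 78.3-fold higher in the eGFP fraction, each against tdTomato (6.63 ± 0.31 and 6.29 ± 0.30 on the log2 scale, SE). Between the eGFP/tdTomato and eGFP fractions its log2 difference was 0.34 ± 0.24 (adjusted p = 0.858).

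The promoter windows of both glutamate carriers, and of the GABA carrier Slc6a11 and the exchanger Slc7a10, are printed because these 4 genes had the largest differences from the tdTomato fraction. Each runs from 250 bases before to 50 bases after the RefSeq start (GRCm38.p6), with a found motif in capitals. A motif position is counted from 1 at the start, with negative numbers before it. The Slc1a2 window lies on the plus strand at chr2:102706188-102706487, and its capitals mark the E-box CAGCTG at 27 to 32. This window is inside the GENCODE gene and not at its annotated start, 102658659. The Slc1a3 window lies on the minus strand at chr15:8710758-8711057, and its capitals mark a Sox motif at -112 to -108. The Slc6a11 window lies on the plus strand at chr6:114130991-114131290, and its capitals mark an antioxidant response element on the reverse strand at -219 to -211. The Slc7a10 window lies on the plus strand at chr7:35186135-35186434 and held none of the 4 motifs searched.
Slc1a2: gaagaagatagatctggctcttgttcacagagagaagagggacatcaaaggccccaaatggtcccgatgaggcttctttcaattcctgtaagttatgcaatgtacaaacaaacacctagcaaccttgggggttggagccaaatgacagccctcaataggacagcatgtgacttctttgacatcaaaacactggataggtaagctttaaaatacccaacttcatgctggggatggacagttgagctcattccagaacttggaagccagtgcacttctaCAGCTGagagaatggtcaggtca
Slc1a3: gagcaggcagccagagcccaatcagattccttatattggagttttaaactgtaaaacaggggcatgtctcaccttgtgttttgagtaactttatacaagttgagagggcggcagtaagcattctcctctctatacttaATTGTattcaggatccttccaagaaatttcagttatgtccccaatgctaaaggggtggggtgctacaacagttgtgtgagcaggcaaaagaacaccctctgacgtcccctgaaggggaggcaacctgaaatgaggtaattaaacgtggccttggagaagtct
Slc6a11: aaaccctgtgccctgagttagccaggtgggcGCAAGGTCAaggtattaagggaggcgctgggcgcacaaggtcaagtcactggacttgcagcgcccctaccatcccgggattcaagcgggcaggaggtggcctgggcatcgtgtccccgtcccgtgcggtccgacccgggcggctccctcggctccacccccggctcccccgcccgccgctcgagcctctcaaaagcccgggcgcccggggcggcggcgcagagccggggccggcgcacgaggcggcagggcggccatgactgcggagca
Slc7a10: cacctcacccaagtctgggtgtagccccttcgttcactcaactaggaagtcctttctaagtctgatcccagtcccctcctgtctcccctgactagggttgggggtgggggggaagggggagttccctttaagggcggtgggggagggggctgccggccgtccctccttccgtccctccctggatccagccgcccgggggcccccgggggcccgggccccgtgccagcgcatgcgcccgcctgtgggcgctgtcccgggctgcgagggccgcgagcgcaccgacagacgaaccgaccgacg
Both glutamate carriers had windows poor in G and C, at 45.7% for Slc1a2 and 45.3% for Slc1a3, with 1 and 3 CpG pairs. For Slc1a2 this holds for the window inside the gene, and its annotated start was not examined. The windows of Slc6a11 and Slc7a10 were rich in G and C, at 72.3% and 70.7% with 32 and 24 CpG pairs. The median of all 32851 windows was 52.7%. Motifs were searched on both strands and no member's window held more than 1 match: the NFI palindrome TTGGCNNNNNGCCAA (in 0.0365% of all windows and in none of the members'), the antioxidant response element TGACNNNGC (12.4%), the Sox motif ACAAT (31.0%) and the E-box CAGCTG (16.3%). An E-box also stood in the Glul window at -85 to -80, and an antioxidant response element in 2 of the 3 windows of Slc6a9, at -46 to -38 and -45 to -37. The windows of Slc1a4 and Slc7a11 held no match. Windows were found for 8 of the 9 genes, all but Slc38a3. Matches are a description of these letters, not of bound sites.

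The balance of the 2 glutamate carriers differed between the astrocyte-rich fractions. The log2 ratio of Slc1a2 to Slc1a3 counts inside a library was 0.10 ± 0.23 in the eGFP/tdTomato fraction, -0.43 ± 0.23 in the eGFP fraction and -0.01 ± 0.05 in tdTomato libraries (SD, n = 4 each). The ratio was 1.45-fold higher in the eGFP/tdTomato fraction than in the eGFP fraction, and the libraries did not overlap (exact two-sided permutation p = 0.0286, the smallest that 4 against 4 can give, adjusted p = 0.0330 over 15 ratio comparisons, of which 9 are reported here). Leaving out each library in turn kept the log2 difference between 0.42 and 0.60. Against the tdTomato fraction, the ratio fell by 0.41 on the log2 scale in the eGFP fraction (same exact permutation p and adjusted p). Between the eGFP/tdTomato and tdTomato fractions it was 0.12, which did not pass (exact permutation p = 0.429). Per kilobase of exon, Slc1a2 stood at 0.699 of the level of Slc1a3 in the eGFP/tdTomato fraction, 0.484 in the eGFP fraction and 0.643 in tdTomato libraries.

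Slc6a11 (ENSMUSG00000030307, chromosome 6, 114131241 to 114249952, plus strand) encodes a GABA carrier found mainly on astrocytes, GAT-3 in the rat and human naming. It was counted at 1209, 1210.2, 2616 and 2114 CPM in the eGFP/tdTomato libraries, 433, 656, 1628 and 602 CPM in the eGFP libraries and 7.08, 6.74, 5.47 and 4.17 CPM in the tdTomato libraries. Libraries numbered 3 were the highest of both astrocyte-rich fractions, and eGFP replicate 3 overlapped the eGFP/tdTomato range. With 305-fold and 141-fold higher levels in the eGFP/tdTomato and the eGFP fraction than in tdTomato (8.25 ± 0.51 and 7.14 ± 0.49 on the log2 scale, SE), it was, with Slc7a10, 1 of the 2 genes with the largest differences from tdTomato. Its log2 difference between the eGFP/tdTomato and eGFP fractions was 1.11 ± 0.37 (adjusted p = 0.195), and 1.68 without eGFP replicate 3 (adjusted p = 0.00487). With the replicate number as a block it was 1.20 and passed (adjusted p = 0.0312).

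Slc6a9 (ENSMUSG00000028542, chromosome 4, 117834506 to 117875198, plus strand) encodes GlyT1, the glycine carrier of glia. It was at 295, 375, 654 and 519 CPM in the eGFP/tdTomato libraries, 76.7, 115, 362 and 159 CPM in the eGFP libraries and 36.3, 39.6, 81.1 and 57.6 CPM in the tdTomato libraries. The library numbered 3 was the highest in each fraction, and tdTomato replicate 3 was above eGFP replicate 1. Slc6a9 was 8.59-fold higher in the eGFP/tdTomato fraction than in tdTomato (3.10 ± 0.44 on the log2 scale, adjusted p = 5.27e-05) and 3.32-fold higher in the eGFP fraction than in tdTomato (1.73 ± 0.42, adjusted p = 0.00448). Without eGFP replicate 3 the second difference was 1.11 (adjusted p = 0.0148). Its log2 difference between the eGFP/tdTomato and eGFP fractions was 1.37 ± 0.42 (adjusted p = 0.129), and 1.99 without eGFP replicate 3 (adjusted p = 0.00374). With the replicate number as a block it was 1.54 and passed (adjusted p = 0.000198). Exons of Ccdc24 on the opposite strand overlap 27.8% of the Slc6a9 exon length, and whether strand was used in counting is not given in the sources used here. Ccdc24 itself averaged 1.80 CPM in the eGFP/tdTomato fraction, 2.69 CPM in the eGFP fraction and 0.632 CPM in the tdTomato fraction.

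Slc7a10 (ENSMUSG00000030495, chromosome 7, 35186385 to 35201114, plus strand) encodes Asc-1, an exchanger of small neutral amino acids that carries glycine and D-serine. Its levels were 619.7, 607, 989.6 and 809.5 CPM in the eGFP/tdTomato libraries, 107, 323, 482 and 272 CPM in the eGFP libraries and 3.03, 2.62, 2.16 and 1.88 CPM in the tdTomato libraries. The 3 ranges were apart, and the tdTomato values rest on 51 to 87 counts per library. Slc7a10 rose 2.56-fold in the eGFP/tdTomato fraction against the eGFP fraction (1.35 ± 0.34 on the log2 scale, adjusted p = 0.0481). This call was lost without any 1 of 10 of the 12 libraries (adjusted p = 0.0557 to 0.243, log2 difference 1.14 to 1.45) and held without eGFP replicate 1 or eGFP replicate 3. Against the tdTomato fraction, Slc7a10 was 312-fold higher in the eGFP/tdTomato fraction (8.29 ± 0.46) and 122-fold higher in the eGFP fraction (6.93 ± 0.44). Exons of Lrp3 on the opposite strand overlap 17.9% of its exon length, and Lrp3 averaged 52.9, 32.9 and 20.99 CPM in the eGFP/tdTomato, eGFP and tdTomato fractions.

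Beside these values, summed markers of several other cell types stood at different levels in the eGFP/tdTomato and eGFP libraries. The summed level of 8 microglia and macrophage markers was 30.4 to 41.9 CPM in the eGFP/tdTomato fraction and 78.5 to 936 CPM in the eGFP fraction. Lyz2, a macrophage gene, carried most of that gap. Its range was 3.07 to 4.23 CPM in the eGFP/tdTomato fraction and 25.2 to 526 CPM in the eGFP fraction. C1qa, C1qb, Csf1r and Mrc1 were also apart and higher in the eGFP fraction. C1qa was at 1.83 to 1.96 CPM in the eGFP/tdTomato fraction and 5.57 to 78.3 CPM in the eGFP fraction. Cx3cr1, Tmem119 and P2ry12 overlapped between the fractions. The summed level of 6 mural and fibroblast markers was 350.0 to 560.1 CPM in the eGFP/tdTomato fraction and 724 to 1771 CPM in the eGFP fraction. The fibroblast genes Dcn, Col1a1 and Lum were apart. Dcn was at 2.71 to 5.98 CPM in the eGFP/tdTomato fraction and 67.3 to 673 CPM in the eGFP fraction. Col1a2 of the same list overlapped, at 314 to 520 CPM (eGFP/tdTomato) and 325 to 584 CPM (eGFP). Its mean was 408 of a summed 450 CPM (eGFP/tdTomato) and 476 of a summed 1074 CPM (eGFP). The mural genes Rgs5 and Pdgfrb overlapped as well. The summed level of 6 ependymal markers was 8.49 to 15.4 CPM in the eGFP/tdTomato fraction and 109 to 253 CPM in the eGFP fraction. That of 6 myelinating oligodendrocyte markers was 1452 to 3041 CPM in the eGFP/tdTomato fraction and 371 to 1250.3 CPM in the eGFP fraction. Neuron marker sums were apart as well, at 30.0 to 49.8 CPM (eGFP/tdTomato) and 51.8 to 65.2 CPM (eGFP). Schwann cell marker sums were apart at 4.13 to 5.86 CPM and 9.37 to 14.0 CPM in the same order. Sums of oligodendrocyte progenitor and of endothelial markers overlapped between these fractions. None of these markers averaged 0 in either fraction, and their part in the differences of the 9 genes was not tested.

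Slc1a4 (ENSMUSG00000020142, chromosome 11, 20302180 to 20332713, minus strand) encodes ASCT1, an exchanger of serine, alanine and cysteine. It was at 389.8, 362, 515 and 602 CPM in the eGFP/tdTomato libraries, 111, 215, 335 and 288 CPM in the eGFP libraries and 29.1, 27.02, 30.3 and 15.1 CPM in the tdTomato libraries. All eGFP/tdTomato libraries were above all eGFP libraries, and eGFP replicate 1 was the lowest of its fraction. Slc1a4 was 18.4-fold higher in the eGFP/tdTomato fraction and 9.34-fold higher in the eGFP fraction than in tdTomato (4.20 ± 0.35 and 3.22 ± 0.33 on the log2 scale, SE). Its log2 difference between the eGFP/tdTomato and eGFP fractions was 0.98 ± 0.31 (adjusted p = 0.148).

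Slc7a11 (ENSMUSG00000027737, chromosome 3, 49892526 to 50443614, minus strand) encodes xCT, which releases glutamate in exchange for cystine, the source of cysteine for glutathione. It was the least abundant of the 9 per kilobase in every fraction. Its levels were 79.4, 87.5, 115 and 55.03 CPM in the eGFP/tdTomato libraries, 74.5, 110.5, 122 and 96.1 CPM in the eGFP libraries and 2.76, 4.93, 3.31 and 3.84 CPM in the tdTomato libraries. The eGFP/tdTomato and eGFP libraries overlapped and the tdTomato libraries lay apart below them. Slc7a11 was 22.6-fold higher in the eGFP/tdTomato fraction and 27.01-fold higher in the eGFP fraction than in tdTomato (4.50 ± 0.28 and 4.76 ± 0.28 on the log2 scale, SE). Of the 9 genes it was the only one whose estimate between the eGFP/tdTomato and eGFP fractions was below 0, at -0.26 ± 0.24 (adjusted p = 0.978).

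The ratio of Slc7a11 to Slc7a10, its relative of the same family, was lowest in the eGFP/tdTomato fraction. Against the eGFP fraction, the log2 estimate there was 1.35 for Slc7a10 and -0.26 for Slc7a11, which was not called. The log2 ratio of Slc7a11 to Slc7a10 was -3.18 ± 0.48 in the eGFP/tdTomato fraction, -1.39 ± 0.62 in the eGFP fraction and 0.60 ± 0.52 in tdTomato libraries (SD, n = 4 each). It fell by 1.80 in the eGFP/tdTomato fraction against the eGFP fraction, and the libraries did not overlap (exact permutation p = 0.0286, adjusted p = 0.0330). With each library left out in turn this difference lay between -1.99 and -1.51. Against tdTomato the ratio fell by 3.79 in the eGFP/tdTomato fraction and by 1.99 in the eGFP fraction, with the same exact p.

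Glul (ENSMUSG00000026473, chromosome 1, 153899944 to 153909723, plus strand) encodes glutamine synthetase, an enzyme that oligodendrocytes also make. It was read at 1060.2, 652, 639 and 601 CPM in the eGFP/tdTomato libraries, 420.0, 617, 409 and 212 CPM in the eGFP libraries and 121, 121, 100.3 and 69.3 CPM in the tdTomato libraries. The value of eGFP/tdTomato replicate 1 stood above the other 3 of its fraction, and eGFP replicate 2 overlapped the eGFP/tdTomato range. Glul had the smallest difference of the 9 between the eGFP/tdTomato and tdTomato fractions, 7.18-fold (2.84 ± 0.31 on the log2 scale, adjusted p = 3.32e-06). Its level was 4.03-fold higher in the eGFP fraction than in the tdTomato fraction (2.01 ± 0.30, adjusted p = 7.77e-05). The log2 difference between the eGFP/tdTomato and eGFP fractions was 0.83 ± 0.29 (adjusted p = 0.230). With the replicate number as a block it was 0.89 and passed (adjusted p = 0.0238).

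Slc38a3 (ENSMUSG00000010064, chromosome 9, 107650634 to 107669530, minus strand) encodes SNAT3, a carrier that lets glutamine out of astrocytes. It was at 219.6, 246, 492 and 375 CPM in the eGFP/tdTomato libraries, 56.01, 119, 256 and 125 CPM in the eGFP libraries and 12.7, 14.6, 13.5 and 7.71 CPM in the tdTomato libraries. In both astrocyte-rich fractions the libraries stood in the same order, with number 1 lowest and number 3 highest, and eGFP replicate 3 lay inside the eGFP/tdTomato range. Slc38a3 was 27.4-fold higher in the eGFP/tdTomato fraction and 11.4-fold higher in the eGFP fraction than in tdTomato (4.78 ± 0.44 and 3.52 ± 0.42 on the log2 scale, SE). Its log2 difference between the eGFP/tdTomato and eGFP fractions was 1.26 ± 0.38 (adjusted p = 0.123), and 1.75 without eGFP replicate 3 (adjusted p = 0.00869). With the replicate number as a block it was 1.36 and passed (adjusted p = 0.0109).

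**Figure D2:**
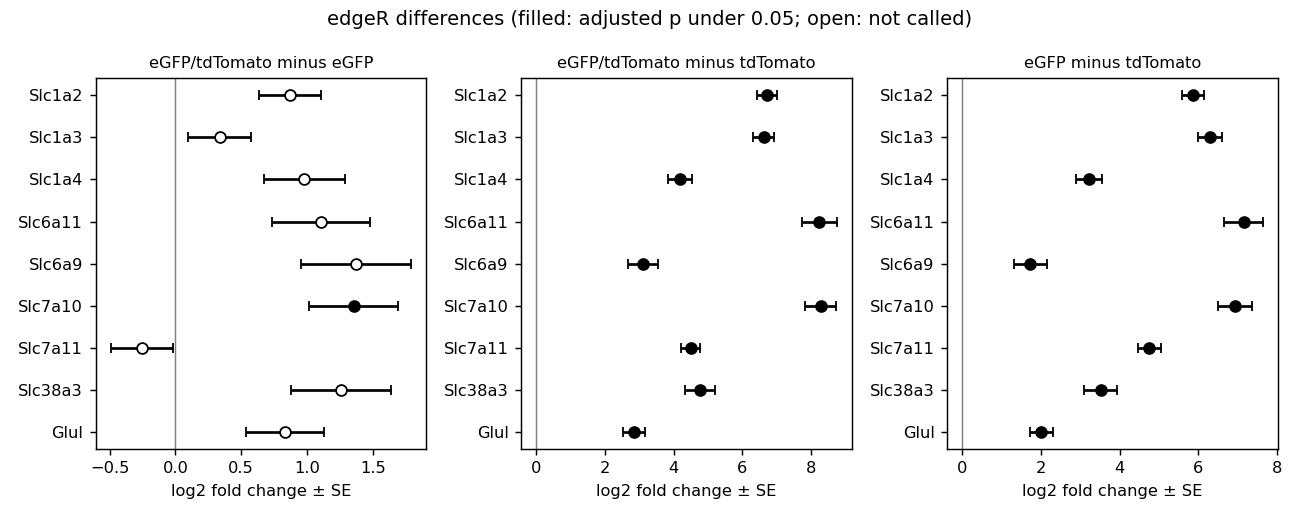
Log2 fold change of each of the 9 genes with its SE from the edgeR fit, for eGFP/tdTomato minus eGFP (left), eGFP/tdTomato minus tdTomato (middle) and eGFP minus tdTomato (right), with filled points for an adjusted p under 0.05. All points are filled in the 2 comparisons with tdTomato, from 1.73 to 8.29, and Slc7a10 alone is filled in the left panel, whose scale is narrower.

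Inside the same libraries, Slc38a3 stood higher against another glutamine carrier in the eGFP/tdTomato fraction than in either other fraction. Slc38a1 is a carrier that takes glutamine into neurons, and the log2 ratio of Slc38a3 to it was 0.55 ± 0.46 in the eGFP/tdTomato fraction, -1.23 ± 0.42 in the eGFP fraction and -2.50 ± 0.15 in tdTomato libraries (SD, n = 4 each). The ratio was 3.44-fold higher in eGFP/tdTomato than in eGFP libraries and 2.40-fold higher in eGFP than in tdTomato libraries (exact permutation p = 0.0286 each, adjusted p = 0.0330). Per kilobase, Slc38a3 stood at 4.78 times the level of Slc38a1 in the eGFP/tdTomato fraction, 1.39 times in the eGFP fraction and 0.578 times in tdTomato libraries. Between the eGFP/tdTomato and tdTomato fractions the log2 difference was 3.05 with the same exact permutation p. With each library left out, the log2 difference between the eGFP/tdTomato and eGFP fractions lay between 1.63 and 1.98. In all, 8 of the 9 ratio comparisons reported here passed. Each of the 8 had the smallest exact permutation p and the same adjusted p of 0.0330. That adjusted value depends on how many of the 15 comparisons reached the smallest p, those with tdTomato among them.

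**Figure D3:**
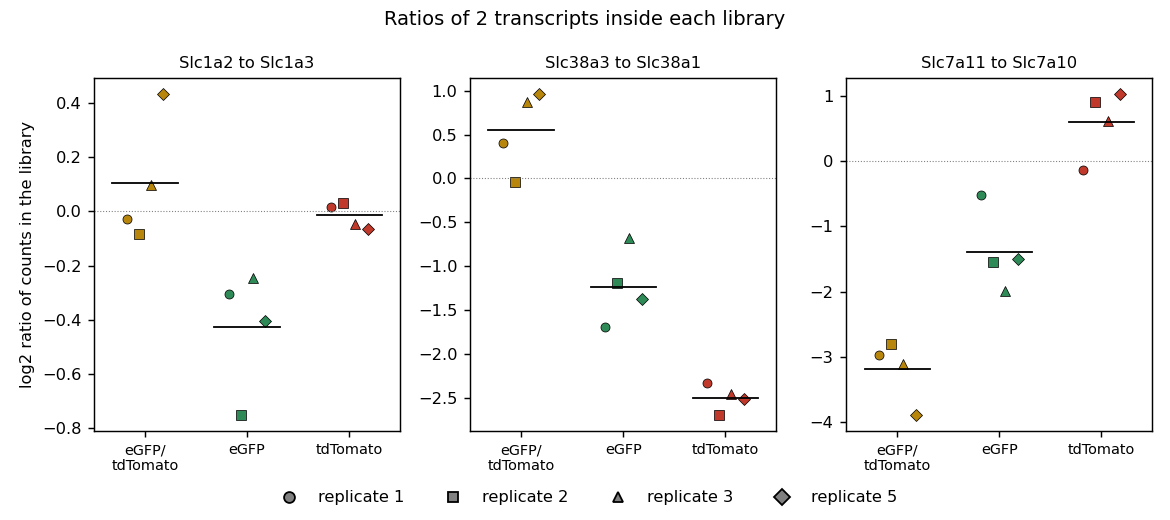
Log2 ratio of the counts of 2 genes inside each library for 3 pairs, with the eGFP/tdTomato, eGFP and tdTomato fractions from left to right, a symbol per replicate number, a line at the mean of 4 libraries and a dotted line at 0. The eGFP/tdTomato libraries stand above the eGFP libraries for Slc1a2 to Slc1a3 and Slc38a3 to Slc38a1 and below them for Slc7a11 to Slc7a10.

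Levels of different genes can be set beside each other per kilobase of exon. In the eGFP/tdTomato fraction the order was Slc7a10 at 358 CPM per kilobase, Slc6a11 at 354, Slc1a3 at 326, Slc1a2 at 227, Glul at 222, Slc1a4 at 119, Slc6a9 at 89.6, Slc38a3 at 63.1 and Slc7a11 at 6.06. Neighbours whose ranges over 4 libraries were apart were Slc1a3 and Slc1a2, Glul and Slc1a4, and Slc38a3 and Slc7a11, and the other neighbours overlapped. In the eGFP fraction Slc1a3 led at 258 CPM per kilobase, followed by Slc6a11 at 164 and Slc7a10 at 140.2, 3 overlapping ranges. In the tdTomato fraction Glul led at 30.95 CPM per kilobase, apart from Slc6a9 at 10.4 and Slc1a4 at 6.47, which overlapped, and the other 6 were at 0.267 to 3.30. Together the 9 genes summed to a mean of 10386 CPM in the eGFP/tdTomato fraction, 6028 CPM in the eGFP fraction and 262 CPM in tdTomato libraries.

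Each gene was also expressed relative to the mean log2 level of 8 astrocyte markers in the same library. Between the eGFP/tdTomato and eGFP fractions this relative log2 level differed by 1.14 for Slc6a9, 1.10 for Slc7a10, 0.97 for Slc38a3, 0.80 for Slc6a11, 0.65 for Slc1a4, 0.48 for Slc1a2, 0.48 for Glul, -0.05 for Slc1a3 and -0.69 for Slc7a11. The libraries did not overlap for Slc1a2, Slc1a4, Slc7a10, Slc38a3 and Slc7a11, which reached the smallest exact permutation p of 0.0286, and none of the 9 passed once adjusted over the 9 (adjusted p = 0.0514 for these 5). The count hung on the marker list, since 6 of the 9 passed when Aqp4, Gja1, Aldoc or Atp1b2 was left out of it and 0 when any other marker was. All genes at the smallest exact permutation p share 1 adjusted p. With 5 genes at it none passed and with 6 at it all 6 passed, so the count moves in a step and does not measure how strongly the genes depend on the markers. In the tdTomato fraction, whose marker level was low, the order was another. The relative log2 level in eGFP/tdTomato minus that in tdTomato libraries was -4.57 for Glul, -4.30 for Slc6a9 and -3.19 for Slc1a4. It was above 0 for 2 genes, at 0.78 for Slc6a11 and 0.86 for Slc7a10. These differences from tdTomato were not tested.

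**Figure D4:**
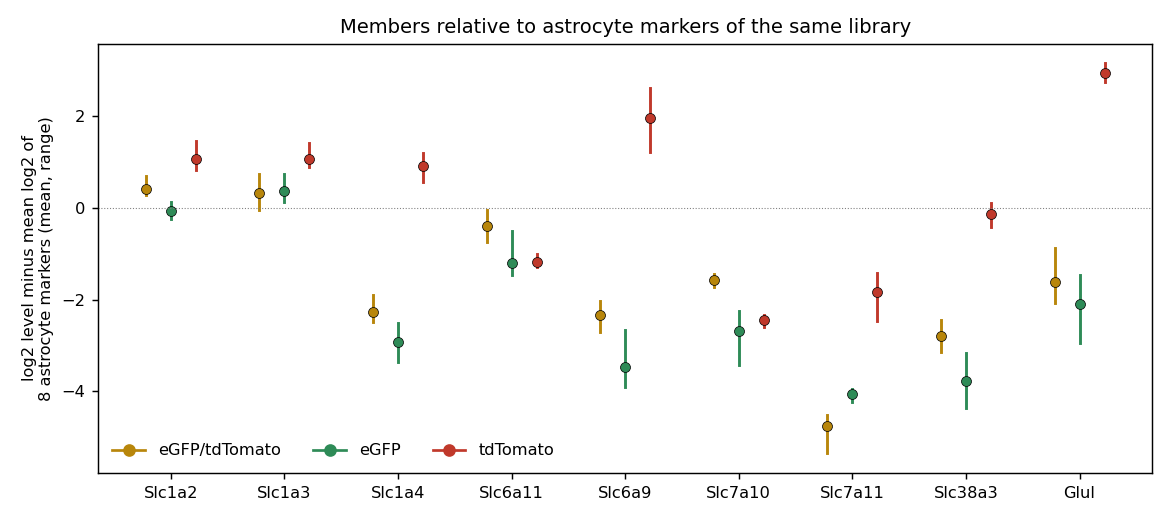
Log2 level of each gene minus the mean log2 level of 8 astrocyte markers of the same library, as the mean (point) and range (line) of 4 libraries, for the eGFP/tdTomato, eGFP and tdTomato fractions from left to right. The eGFP/tdTomato points of Glul and Slc6a9 lie below the tdTomato points (differences of -4.57 and -4.30), and those of Slc6a11 and Slc7a10 lie above them.

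Of 34 other genes that make, carry or break down these transmitters, 33 passed the filter, and their median log2 differences were 0.04 between eGFP/tdTomato and eGFP, 1.66 between eGFP/tdTomato and tdTomato, and 1.76 between eGFP and tdTomato. In the last 2 comparisons 14 were higher and 7 lower, and 17 were higher and 5 lower, beside 16.8% higher and 12.4% lower, and 20.4% higher and 14.9% lower, of all tested genes. Between eGFP/tdTomato and eGFP, 2 were higher and 1 was lower, beside 0.814% and 1.67% of all tested genes. The number higher there was 7 with DESeq2, limma-voom, the replicate block and upper-quartile factors, and 8 with the covariate for reads outside genes. It was 7 without eGFP replicate 3, against 1 or 2 without any other single library. Of all genes, 547, 335, 566, 391, 530 and 475 were called higher in these fits, in that order, against 239 in the reported fit. Among these other transmitter genes the number lower was 0 to 4 over all alternatives. Slc1a1, the glutamate carrier EAAC1 of neurons and the oligodendrocyte lineage, averaged 9.43 ± 3.50 CPM in the eGFP/tdTomato fraction, 0.947 ± 0.556 CPM in the eGFP fraction and 398 ± 92.8 CPM in the tdTomato fraction. The eGFP value rests on 9 to 42 counts per library. Its order was thus the reverse of that of Slc1a2 and Slc1a3 against tdTomato, with log2 differences of -5.40 ± 0.38 for eGFP/tdTomato and -8.66 ± 0.45 for eGFP. It was 9.60-fold higher in eGFP/tdTomato than in eGFP libraries (3.26 ± 0.38, adjusted p = 0.000162). Aldh5a1, which oxidises the product of GABA breakdown, averaged 73.4 ± 16.2 CPM in the eGFP/tdTomato fraction and 35.6 ± 10.4 CPM in the eGFP fraction (1.04 ± 0.24, adjusted p = 0.0297). Slc6a13, a GABA carrier of the meninges, was lower in the eGFP/tdTomato fraction at 1.72 ± 1.14 CPM than in the eGFP fraction at 11.3 ± 6.30 CPM (-2.71 ± 0.68, adjusted p = 0.0478). The call of Aldh5a1 was lost without any 1 of 6 libraries (adjusted p = 0.0533 to 0.194) and that of Slc6a13 without any 1 of 9 (adjusted p = 0.0533 to 0.179).

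Against tdTomato the genes of glutamate use differed in both directions. Glud1, the glutamate dehydrogenase, averaged 1359 ± 228 CPM in the eGFP/tdTomato fraction, 820.0 ± 236 CPM in the eGFP fraction and 149.9 ± 23.7 CPM in the tdTomato fraction and was higher in both than in tdTomato. Got1 and Got2, the aspartate transaminases, were lower in both. Got2 averaged 40.2 ± 4.29 CPM in the eGFP/tdTomato fraction, 29.8 ± 10.8 CPM in the eGFP fraction and 106 ± 20.01 CPM in the tdTomato fraction. Slc38a2, another glutamine carrier, was lower in both as well, at 47.5 ± 16.04 CPM, 58.9 ± 11.96 CPM and 212 ± 39.5 CPM in the eGFP/tdTomato, eGFP and tdTomato fractions. Slc3a2, the heavy chain that Slc7a10 and Slc7a11 pair with, was higher in both than in tdTomato and averaged 826 ± 89.9, 549 ± 167 and 162 ± 23.8 CPM in that order. Atp1b2, a subunit of the sodium pump that drives uptake, was higher in both, with a log2 difference from tdTomato of 7.02 ± 0.33 for eGFP/tdTomato and 6.10 ± 0.31 for eGFP. It is also 1 of the 8 astrocyte markers. Gldc and Amt of the glycine cleavage system were higher in both. Their log2 differences were 2.03 ± 0.25 and 1.81 ± 0.27 for eGFP/tdTomato and 1.64 ± 0.25 and 1.77 ± 0.27 for eGFP. Gcsh of the same system was called higher in the edgeR fit for eGFP/tdTomato (0.72 ± 0.23, adjusted p = 0.0278). For eGFP it was not called (0.24 ± 0.23, adjusted p = 0.409). The Gcsh call held under 14 of 26 alternatives.

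**Figure D5:**
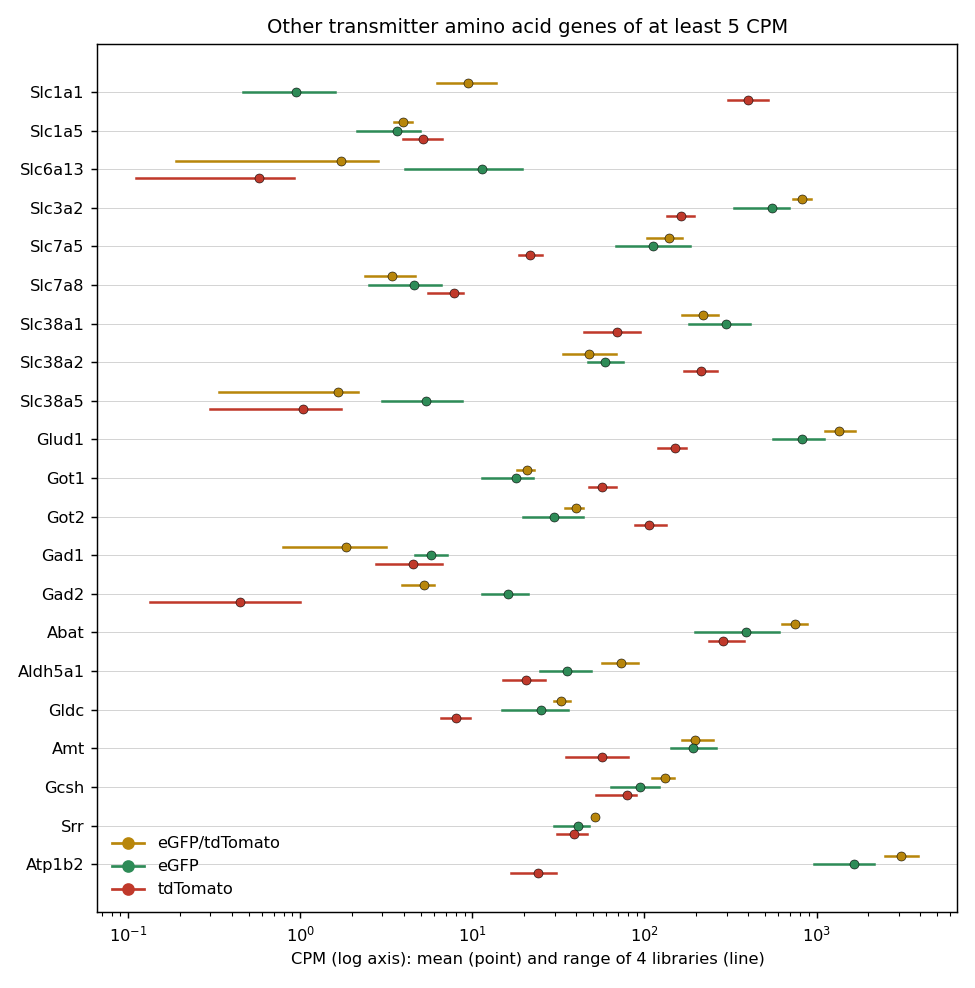
CPM on a log axis of 21 other transmitter genes with at least 5 CPM in their highest fraction, as the mean (point) and range (line) of 4 libraries, for eGFP/tdTomato, eGFP and tdTomato from top to bottom within each gene. The tdTomato points lie farthest to the right for genes including Slc1a1, Slc38a2, Got1 and Got2 and far to the left for Atp1b2.

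Likeness of profiles was measured over the 12 libraries as the root mean square difference of log2 levels, each profile centred on its own mean, among 9675 protein-coding genes of at least 10 CPM on average. The nearest genes to Slc1a2 were Vcam1 (0.18) and Lcat (0.24), and to Slc1a3 they were S1pr1 (0.24) and Aldoc (0.24). Slc6a11 and Slc7a10 were each other's nearest (0.32), with Acsbg1 next for both (0.39 and 0.32). Slc6a9 was nearest to Sept9 (0.28), Slc1a4 to Fabp7 (0.29) and Gmpr (0.31), and Slc38a3 to Acsl6 (0.29) and Slc1a4 (0.32). Slc7a11 was nearest to Pdgfrl (0.22) and Cavin3 (0.24), and Glul to Cyp2j9 (0.33) and Rftn2 (0.34). Among the 9 themselves the closest pairs were Slc1a2 with Slc1a3 (0.28) and Slc6a11 with Slc7a10 (0.32), and the farthest were Slc6a11 and Glul (2.49).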

How the data were processed

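Counts per gene came from 12 libraries of total RNA read on a BGISEQ-500. Per the submitters' processing notes, STAR, HTSeq and GRCm38 (mm10) were used; versions, annotation release and strand setting are not given in the sources used here. The authors deposited raw counts, 1 file per library, each of them whole numbers for 53465 genes. The 5 closing lines of a file name no gene and stayed out of library sizes and tests. Gene counts were 12.6 to 36.5 (units of 1e6) per library, and 21.2 to 57.1% of reads lay outside genes. Symbols, positions and exon lengths came from GENCODE M21 (53360 identifiers matched), and promoter windows from RefSeq (GRCm38.p6).

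The 9 genes, the lists and the tests were chosen with earlier results of these data known. Groups came from the sample titles. All 12 libraries entered 1 fit in edgeR 4.0.16 (R 4.3.3): robust quasi-likelihood F-test with TMM factors and filterByExpr by fraction, the fraction as the term, Benjamini-Hochberg over 29361 genes, called under an adjusted p of 0.05. The SE is the log2 fold change over the root of F. Levels are CPM scaled by TMM, as mean ± SD. Ratios and marker-relative levels used log2 counts with a prior of 0.5 and exact two-sided permutation tests of 4 against 4 libraries, for which 0.0286 is the smallest p. The script was tested on simulated data.

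The deviations of same-numbered libraries from their fraction means correlated at 0.148 to 0.492 between eGFP/tdTomato and tdTomato, 0.160 to 0.423 between eGFP and tdTomato and 0.0146 to 0.635 between eGFP/tdTomato and eGFP (11693 genes), over 0.1 for 11 of 12 pairs and not for number 2 of the last. The labels number these as sets across the 3 fractions without saying what a set shares. The fit without a block is the one reported, and values with the replicate number as a block stand beside it where the call differs. Alternatives covered DESeq2 1.42.0 and limma-voom (limma 3.58.1), normalization, filters, the block, a covariate, protein-coding genes only, the 8 libraries compared and each library left out. The text may name all 9 genes, the other transmitter genes of at least 5 CPM in their highest fraction, and 2 nearest genes per member. Some of the other genes, and 2 ratio pairs, entered the fits, counts and adjustments but are not reported here.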

Additional observations from a re-analysis of the deposited data

Results flagged for a closer look

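In 3 of 54 groups of 4 libraries checked, 1 library stood far from the other 3 (Dixon's test at the 95% level, which chance passes in about 1 group in 20). Glul was at 1060 CPM in eGFP/tdTomato replicate 1, where the other 3 libraries of the fraction were at 601 to 652 CPM. Relative to the astrocyte markers, Slc6a11 stood at -0.51 on the log2 scale in eGFP replicate 3, against -1.46 to -1.39 in the other eGFP libraries. Slc7a11 stood at -5.36 relative to the markers in eGFP/tdTomato replicate 5, against -4.61 to -4.53 in the other eGFP/tdTomato libraries.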

How the results depend on the processing

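All 18 differences of the 9 genes from tdTomato kept their direction and their call under each of 26 alternatives, and no called value of any gene named reversed. The median of all genes moved with the setting, from -0.14 to 0.12 for eGFP/tdTomato minus eGFP, from 0.12 to 0.97 for eGFP/tdTomato minus tdTomato and from 0.04 to 1.07 for eGFP minus tdTomato, and relative to the medians of 0.70 and 0.79 the 9 genes stood 2.14 to 7.58 and 0.94 to 6.35 higher. Between eGFP/tdTomato and eGFP, Slc1a3 and Slc7a11 were called under none of the 26 alternatives and Slc7a10 under 13. The count of the 9 called higher there, 1 as reported, was 6 with DESeq2, with the replicate block and with the covariate for reads outside genes, 4 with upper-quartile factors and with limma-voom, 2 with at least 1 CPM in 4 libraries and with protein-coding genes, and 0 with the 8 libraries compared. It ranged from 0 to 5 with libraries left out. The 239 genes called higher there became 391 with upper-quartile factors, 547 with DESeq2, 566 with the block, 530 with the covariate and 60 to 475 with libraries left out. The 491 called lower became 949 with DESeq2 and 201 to 656 with libraries left out. The 3628 called lower in eGFP/tdTomato than in tdTomato became 2609 to 5452, the highest without eGFP replicate 1. Relative to the astrocyte markers, 6 of the 9 genes passed, in place of 0, when Aqp4, Gja1, Aldoc or Atp1b2 was left out of the marker list. There a 6th gene at the smallest exact permutation p lets all 6 pass, as the adjusted p moves in a step. With the replicate block, which changed the call of 5 of the 9 genes between eGFP/tdTomato and eGFP, same-numbered libraries of these 2 fractions correlated at 0.0146 for number 2 and 0.109 to 0.635 for the others, and 7 of 12 libraries correlated best with their own number. Beyond that step in the adjusted p, the cause of these changes was not tested. Of the 41 called differences of other transmitter genes, 34 were called under every alternative. Ratios with 1 library left out are values only, since 4 against 3 cannot give an exact p below 0.0571. At 51 to 87 counts per tdTomato library for Slc7a10, depth limits the low side of its fold changes.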

Other observations

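In the eGFP fraction, replicate 3 was the highest library for 7 of the 9 genes and replicate 1 the lowest for 8. In the eGFP/tdTomato fraction, replicate 3 was the highest for 6 and the lowest library was replicate 1, 2 or 5 for 3 genes each. In the tdTomato fraction replicate 5 was the lowest for 7, and the highest was replicate 1 for 3 genes, replicate 2 for 4 and replicate 3 for 2. Slc6a9 was the gene of the 9 whose libraries stood in the same order in all 3 fractions, 1, 2, 5 and 3 from low to high, of 24 possible orders. These orders were noticed in the data and not tested.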
